A study of Mus musculus with 45 samples.

Results

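The liver makes most of the proteins that clot blood and dissolve clots. The 34 genes described here encode such proteins, their inhibitors and enzymes that process them, and some are made mainly outside hepatocytes. The members are 14 procoagulant and contact factors, the 3 fibrinogen chains, 9 anticoagulants and inhibitors, 6 genes grouped under fibrinolysis and 2 enzymes of the vitamin K cycle. The fibrinolysis group includes Hgfac, a protease that activates hepatocyte growth factor. They were taken by symbol from a list of coagulation and fibrinolysis genes, all 34 were found, and the table of the whole series holds 24946 usable genes. In the clotting cascade, proteases activate each other in turn until thrombin, the product of F2, cuts soluble fibrinogen into fibrin. Antithrombin, the protein C pathway and tissue factor pathway inhibitor restrain the cascade, and plasmin, the product of Plg, digests the fibrin. Fibrinogen is also an acute phase protein, meaning that hepatocytes make more of it during inflammation.

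RNA was sequenced in bulk from lysed liver tissue of wild-type mice in 45 libraries. At peak injury, mice had been fed the Lieber-DeCarli liquid diet, with or without ethanol, for 6 weeks. At early resolution, the ethanol-labelled mice had then received the control diet for 3 days, and at late resolution for 2 weeks. What control-labelled mice received at the resolution stages is not given in the sources used here. Stage, diet and sex labels gave 12 groups, 9 of 4 libraries and 3 of 3 libraries. The groups of 3 were ethanol-labelled females at early resolution and both ethanol-labelled groups at late resolution. Ages, and whether libraries came from separate animals, are not given either, so p-values measure only the spread between these libraries. Levels are in TPM, a unit of transcript abundance that is corrected for gene length and adds up to the same total in each library, and the sequencing depth is unknown. Single libraries are called by label, for example peak ethanol female 3.

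The sex-chromosome transcripts followed the diet label and not the sex label. Xist, the transcript by which female cells inactivate an X chromosome, was between 13.7 and 51.8 TPM in all 21 ethanol-labelled libraries. It was at most 0.349 TPM in 23 of the 24 control-labelled libraries, and these had at least 7.83 TPM of the Y-linked gene Eif2s3y, which was at most 0.0386 TPM in ethanol-labelled libraries. The exception was late control female 1, with 39.5 TPM of Xist and Eif2s3y listed at 0. In total 22 libraries went against their sex label. At peak, ethanol-labelled libraries were higher in all 11 female-biased liver genes listed and lower in 13 of the 14 male-biased ones. Diet and the sex shown by transcripts therefore cannot be told apart in any diet-label difference below. The sex-label groups overlapped in these transcripts at every stage, so what the sex label stands for is uncertain too. Whether the diet and sex labels of the libraries were interchanged, or animals mislabelled, was not tested, and this bears on every sex-label difference below as much as on the diet-label ones. Groups are named by their labels only. The 7 hepatocyte markers all passed the filter on low values, and none was at 0. Their summed level averaged 146915 ± 11037 TPM (SD) in control-labelled and 162189.6 ± 14476 TPM in ethanol-labelled libraries at peak, 125269.8 ± 28928 and 170831 ± 18768 TPM at early resolution, and 141592 ± 24135 and 195999 ± 10226 TPM at late resolution. Of the 7, 0 rose and 1 fell by diet label at peak, 2 rose and 1 fell at early and 3 rose and 3 fell at late resolution. Macrophage markers rose for 1, 7 and 5 of 9 at the 3 stages, and stellate cell markers for 5, 3 and 1 of 7 tested, with none that fell. Of all genes, 17.3%, 14.3% and 8.82% rose and 9.81%, 2.46% and 3.98% fell. After median-of-ratios scaling, macrophage markers rose for 1, 6 and 6 and stellate markers for 6, 2 and 1. Hepatocyte markers then rose for 0, 1 and 2 and fell for 2, 1 and 3. The shares of all genes that rose were then 15.0%, 7.61% and 8.50%. The summed macrophage level was 155 to 425 TPM in ethanol-labelled and 176 to 316 TPM in control-labelled libraries at peak, 307 to 498 against 118 to 346 TPM at early, and 330.4 to 522 against 154 to 576 TPM at late resolution. The summed stellate level was 117 to 325 against 50.4 to 179.9 TPM, 178 to 246 against 86.0 to 171 TPM and 133 to 208 against 73.3 to 172 TPM. The part of these markers in the members' differences was not tested.

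Levels of the members spanned more than 4 orders of magnitude, with fibrinogen at the top. Over the 45 libraries, Fgb averaged 11731 TPM, Fgg 9312 TPM and Fga 7895 TPM, and they were followed by Kng1 at 3639.9 TPM, Pzp at 2569 TPM and Plg at 2403 TPM. Together the 34 genes took between 2.80% and 8.45% of all TPM. Fibrinogen alone took between 1.23% and 6.52%, while the other 31 members took between 1.56% and 2.27%. At the low end were genes that are made mainly outside hepatocytes. Vwf, the platelet-binding factor of endothelium, averaged 1.32 TPM, Thbd 2.19 TPM, Tfpi 2.10 TPM and F8 0.979 TPM. F3, the tissue factor that starts clotting, averaged 0.414 TPM and Plat, the tissue plasminogen activator, 0.446 TPM. Both were below the mean of 0.5 TPM required for testing, so 32 of 34 members were tested.

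The 3 fibrinogen genes lie side by side on chromosome 3 (mm10), within chr3:83007724-83049863, with Fgg and Fga on the forward strand and Fgb on the reverse strand. Because their levels moved together between libraries, the 250 bases before each RefSeq start (GRCm38.p6) are shown, 5′ to 3′ on the strand of the gene. Capitals mark matches, on either strand, to the IL-6 response core CTGGGA, the C/EBP core TTGCNNAA or the STAT element TTCNNNGAA. The windows are chr3:83025903-83026152 for Fga, chr3:83049864-83050113 for Fgb and chr3:83007474-83007723 for Fgg. GENCODE M21 places the first start of Fga upstream of the RefSeq start used here.
Fga: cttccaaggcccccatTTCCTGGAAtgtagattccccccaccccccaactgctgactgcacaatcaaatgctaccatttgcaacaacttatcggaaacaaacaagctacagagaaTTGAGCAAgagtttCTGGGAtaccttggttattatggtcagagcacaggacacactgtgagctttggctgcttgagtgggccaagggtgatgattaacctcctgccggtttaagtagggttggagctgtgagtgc
Fgb: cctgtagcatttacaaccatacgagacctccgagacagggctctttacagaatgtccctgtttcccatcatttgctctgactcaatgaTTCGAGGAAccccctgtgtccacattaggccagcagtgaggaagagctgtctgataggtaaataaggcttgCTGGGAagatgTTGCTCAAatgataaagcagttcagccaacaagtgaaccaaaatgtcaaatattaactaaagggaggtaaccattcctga
Fgg: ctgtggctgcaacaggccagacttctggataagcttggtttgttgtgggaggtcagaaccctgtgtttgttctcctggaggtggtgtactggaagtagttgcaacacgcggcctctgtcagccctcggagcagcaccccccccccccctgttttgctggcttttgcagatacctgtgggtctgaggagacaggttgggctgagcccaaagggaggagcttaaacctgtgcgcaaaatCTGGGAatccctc
The CTGGGA core occurred 1 time in each of the 3 windows, from 121 bases before the start in Fga, 91 in Fgb and 13 in Fgg. It occurred in 27.0% of 32851 mouse promoters of the same length and in 10 of the 27 members with a promoter sequence. The C/EBP core and the STAT element each matched in Fga and Fgb, and neither matched in Fgg. Their shares of all promoters were 9.6% and 7.0%, and a search for the TATA box TATAAA found no match in the 3 windows and a match in 12.4% of promoters. The marked matches did not overlap each other. These are letter matches and no test of binding.

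Fibrinogen mRNA was high in every peak ethanol male library and varied strongly within most other groups. Fga, the alpha chain, was 16879, 15587, 16870.4 and 14930.0 TPM in peak ethanol males. In peak ethanol females it was 5604, 5446, 16192 and 4559 TPM, so that 1 of 4 libraries was at the level of the males. Peak control males had 7725, 3954, 6041 and 14489 TPM, and peak control females 4102, 5049, 4334 and 2685 TPM. Fga of all ethanol-labelled males was above that of all control-labelled males, whereas the female-labelled groups overlapped. Averaged over the sex labels, the ethanol-labelled libraries at peak had 1.98 times the Fga of the control-labelled (log2 difference 0.98 ± 0.33 SE, limma adjusted p = 0.026). Fgb, the beta chain, was 1.86 times as high (0.89 ± 0.30, adjusted p = 0.023) and Fgg, the gamma chain, 1.95 times (0.96 ± 0.31, adjusted p = 0.02), each with 8 of 8 ethanol-labelled libraries above the control mean of their sex label.
The call for all 3 chains was lost without peak ethanol female 3 (adjusted p between 0.069 and 0.08) or without peak control male 2, and under median-of-ratios scaling. That for Fga was also lost without peak control female 4 (log2 difference 0.89, adjusted p = 0.057).

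**Figure D1:**
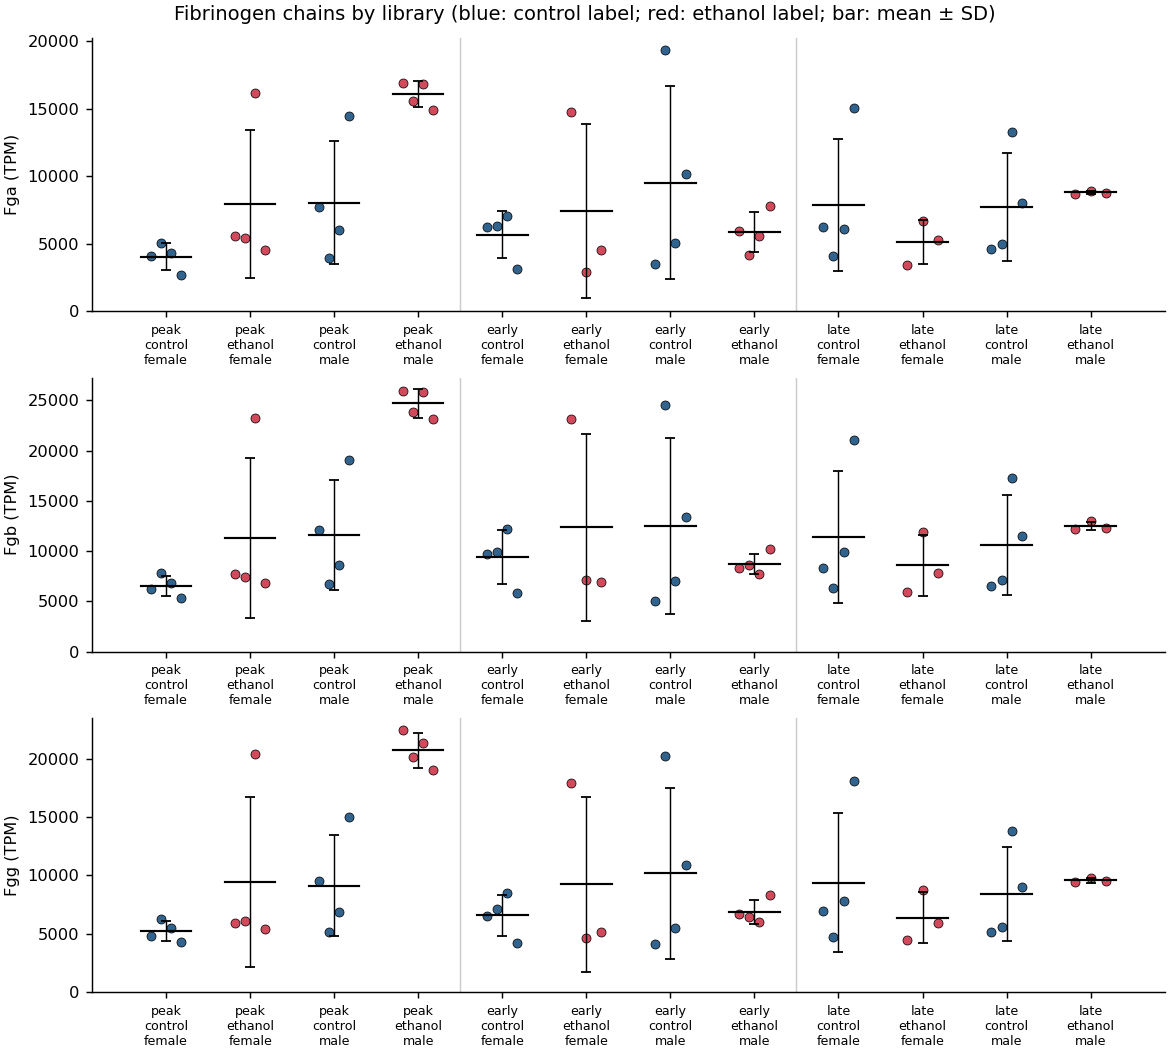
Each point is 1 library and the y axes give TPM for Fga, Fgb and Fgg in the 12 groups of stage, diet and sex label, with blue for control and red for ethanol labels, a horizontal bar for the mean and an error bar for the SD. The 4 peak ethanol males are all high, at 14930.0 to 16879 TPM of Fga, while single high libraries stretch the SD in 6 other groups.

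At the later stages, fibrinogen did not differ by diet label beyond the spread. At early resolution Fga was 14768, 2915 and 4577 TPM in ethanol females and 5956, 4162, 5578 and 7811 TPM in ethanol males. Control females had 6234, 6314, 7042 and 3132 TPM, and control males 3532, 19359, 5032 and 10194 TPM. The highest value of the stage was thus a control-labelled library. The log2 difference by diet label was -0.16 ± 0.35 at early resolution (adjusted p = 0.8) and -0.08 ± 0.36 at late resolution (adjusted p = 0.9). At late resolution the ethanol males were close together at 8713, 8946 and 8772 TPM, and the highest libraries were control female 4 at 15077 TPM and control male 3 at 13263 TPM.

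The chains varied less in proportion to each other than in level. Over all 45 libraries Fga ranged 7.21-fold, Fgg 5.43-fold and Fgb 5.14-fold. The ratio of Fgb to Fga ranged 1.93-fold, from 1.27 to 2.44, and that of Fgb to Fgg 1.33-fold, from 1.14 to 1.53. The ratio of Fgg to Fga ranged 1.55-fold, from 1.03 to 1.60. The fibrinogen chains had the largest within-group SDs of the 32 tested members, 0.70 for Fga, 0.65 for Fgg and 0.62 for Fgb on the log2 scale. The median of all genes tested was 0.28, and F10, the least variable member, had 0.09.

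High fibrinogen and high acute phase mRNA were found in largely the same libraries. Of the 10 libraries with the highest summed fibrinogen, 9 were among the 10 with the highest sum of the 16 acute phase genes, a list that holds no fibrinogen chain. They were the 4 peak ethanol males, peak ethanol female 3, peak control male 4, early control male 2, early ethanol female 1 and late control female 4. Late control male 3 was 10 in the order of fibrinogen and 13 in that of the acute phase sum. Early control female 3 went further apart. It was 5 in the order of the acute phase sum (106020.1 TPM) and 17 in that of fibrinogen (27754 TPM). The acute phase sum was between 87255 and 126911 TPM in peak ethanol males and between 14564 and 30655 TPM in peak control females. By diet label at peak, 2 of 16 acute phase genes rose and 1 fell, beside 17.3% and 9.81% of all genes. Itih4, an acute phase glycoprotein, rose by 1.24 on the log2 scale (adjusted p = 0.0042) and Lbp, the lipopolysaccharide binding protein, by 0.81 (adjusted p = 0.0062), while Saa4, the constitutive serum amyloid A, fell by 1.06 (adjusted p = 0.00019). Their part in the fibrinogen result was not tested.

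**Figure D2:**
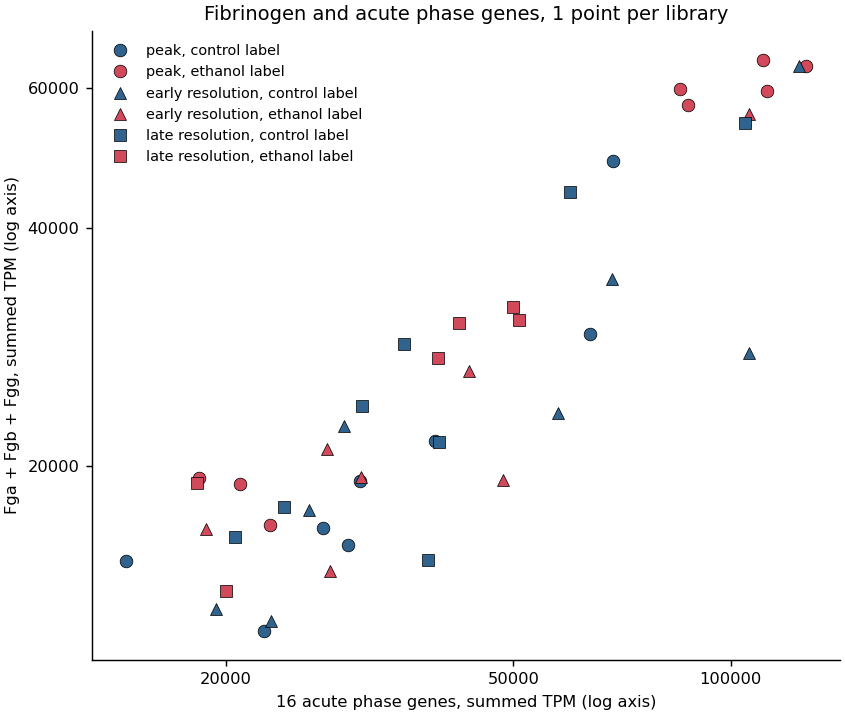
Each point is 1 of 45 libraries, with the summed TPM of 16 acute phase genes on the x axis and of Fga, Fgb and Fgg on the y axis, both on log scales; shape gives the stage and colour the diet label. Libraries of both labels and of all 3 stages lie in the upper right, with fibrinogen sums up to 65223 TPM.

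Among the procoagulant factors at peak, F2, F7, F10 and Kng2 were modestly higher in ethanol-labelled libraries and F11 and F9 lower under both scalings. Of the 13 tested, 6 rose and 2 fell on the TPM as deposited, beside 17.3% and 9.81% of all genes. After median-of-ratios scaling 4 rose and 3 fell, beside 15.0% and 20.7%. F2 (prothrombin) was 1606, 1646, 1587 and 1686 TPM in peak control females and 2175, 2256, 1998 and 2260.0 TPM in ethanol females. Control males had 1571, 1626, 1640.3 and 1467 TPM and ethanol males 1792, 1881, 1821 and 1776 TPM, so no ethanol-labelled library overlapped the controls. The log2 difference was 0.31 ± 0.07 (1.24-fold, adjusted p = 0.00076). F10, whose product activates prothrombin, rose 1.29-fold (0.36 ± 0.06, adjusted p = 9.1e-06), also without overlap, from 384 to 451 TPM in controls to 495 to 599 TPM. F7, the partner of tissue factor and a neighbour of F10 on chromosome 8, rose 1.21-fold (0.28 ± 0.09, adjusted p = 0.024). This call was lost without peak ethanol female 2 or peak control male 4.

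F11, the contact pathway protease that activates factor IX, had the largest fall of any member at peak. It was 53.0, 54.8, 50.5 and 32.1 TPM in peak control females and 17.2, 22.4, 17.6 and 31.3 TPM in ethanol females. In control males it was 69.6, 64.1, 77.1 and 68.4 TPM and in ethanol males 59.2, 42.4, 56.2 and 51.8 TPM. Within each sex label no ethanol-labelled library reached the lowest control. F11 fell by 0.76 on the log2 scale (SE 0.15, a ratio of 0.591, adjusted p = 0.00031). Klkb1, the plasma prekallikrein gene next to F11 on chromosome 8, had a log2 difference of -0.49 ± 0.20 that did not pass (adjusted p = 0.065). After median-of-ratios scaling Klkb1 was called as lower when averaged over the sex labels. By limma within each sex label, the male-labelled difference of -0.67 was called (adjusted p = 0.011). The female-labelled difference of -0.47 was not (adjusted p = 0.16). Part of Klkb1 is shared with the overlapping gene model Gm45753, so its level is uncertain. F9, whose deficiency causes haemophilia B, fell by 0.27 (SE 0.10, adjusted p = 0.049), and this call was lost on leaving out any of 29 single libraries.

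The kininogens, cofactors of contact activation and precursors of bradykinin, rose in the ethanol-labelled libraries at all 3 stages. Kng2 at peak was 576, 656, 610.1 and 602 TPM in control females and 843, 931, 862 and 748 TPM in ethanol females. Control males had 546, 482, 461 and 540.2 TPM and ethanol males 923, 782, 795 and 876 TPM. No ethanol-labelled library overlapped the controls at peak, and its log2 difference was 0.60 ± 0.08 (1.52-fold, adjusted p = 2.5e-07). It was 0.55 ± 0.08 at early resolution (adjusted p = 5.5e-06) and 0.42 ± 0.08 at late resolution (adjusted p = 0.0006). Kng1, about 5.88 times as abundant by the median ratio, rose by 0.18, 0.26 and 0.28 at the 3 stages, but was not called under median-of-ratios scaling at any of them, and its peak call was lost without any of 7 single libraries. Longest transcripts of Kng1 and Kng2 are 91.8% and 93.8% identical over 1345 and 884 bases, so reads could be divided between them wrongly and both levels are uncertain.

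The factors made mostly by endothelial cells were scarce. Vwf rose by 0.49 ± 0.19 at peak (adjusted p = 0.049), a call lost on leaving out any of 27 single libraries, with means of 1.08 TPM in control and 2.17 TPM in ethanol females, and 0.770 and 1.06 TPM in males. F8, which is absent in haemophilia A, had a difference of 0.28 ± 0.17 (adjusted p = 0.21). All 10 endothelial markers also rose at peak, beside 17.3% of all genes, with a median log2 difference of 0.67. Among those above this median were Cdh5 at 1.04, Pecam1 at 0.98 and Lyve1 at 1.31. The summed level of the 10 markers was between 63.3 and 228 TPM in control-labelled and between 99.3 and 304 TPM in ethanol-labelled libraries, and no marker was at 0. Its part in the Vwf and Thbd results was not tested. In bulk tissue, fewer cells of a type and less RNA per cell cannot be told apart. F5, F12 and F13b did not pass at peak, with differences between 0.16 and 0.25. At the later stages F2, F7 and F10 rose again. The difference of F7 was 0.54 ± 0.10 at early and 0.50 ± 0.10 at late resolution (adjusted p = 0.00013 and 0.00072), that of F10 was 0.27 and 0.37, and that of F2 was 0.28 and 0.30. F12, which starts contact activation, rose by 0.24 ± 0.08 at early resolution (adjusted p = 0.029), a call lost without any of 6 single libraries. Under median-of-ratios scaling F2, F10 and F12 were not called at early resolution (0.10, 0.08 and 0.06).

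The anticoagulants were led by Thbd, the thrombin receptor that turns thrombin into an activator of protein C. It was 0.364, 2.51, 2.45 and 1.91 TPM in peak control females and 2.44, 1.33, 6.77 and 2.96 TPM in ethanol females. In control males it was 1.08, 1.26, 1.93 and 3.76 TPM and in ethanol males 5.70, 7.02, 10.4 and 6.91 TPM, above every control. Thbd rose by 1.24 ± 0.27 (2.36-fold on the scale of TPM + 0.5, adjusted p = 0.00084). At early resolution its difference was 0.26 ± 0.28 and at late resolution -0.29 ± 0.30, neither called. Serpinc1 (antithrombin) rose at all 3 stages, by 0.23, 0.40 and 0.40 (adjusted p = 0.046, 0.0018 and 0.003), although the peak call was lost on leaving out any of 20 single libraries. Pros1, the protein S cofactor of protein C, rose by 0.36 ± 0.14 at peak (adjusted p = 0.045), and its call was lost without any of 12 single libraries. Proc (protein C) did not differ at peak (0.00 ± 0.12) and rose by 0.35 at early and 0.39 at late resolution (adjusted p = 0.046 and 0.041). Its early call was lost without any of 17 single libraries and its late call without any of 10.

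The remaining inhibitors were not called by diet label at any stage. Tfpi, which blocks the tissue factor complex, had differences of 0.31, 0.39 and 0.25, and Serpind1 (heparin cofactor II) of 0.00, 0.21 and 0.36. Proz, a cofactor for inhibition of factor Xa, had -0.01, 0.23 and 0.24, Hrg, the histidine-rich glycoprotein, 0.06, -0.02 and 0.07, and Pzp, a broad protease inhibitor, 0.28, -0.16 and -0.16. On the TPM as deposited, 3 of the 9 genes in the group rose at peak, 2 at early and 2 at late resolution, and none fell, beside 17.3%, 14.3% and 8.82% of all genes that rose. After median-of-ratios scaling 1 rose at each stage, Thbd at peak and Serpinc1 at the later stages, and Pros1 fell by 0.48 at late resolution (adjusted p = 0.026). The peak calls of Serpinc1 and Pros1 and both calls of Proc were lost.

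In fibrinolysis, plasminogen and its direct inhibitor rose together at peak. Plg was 2103, 2318, 2023 and 1753 TPM in control females and 2819, 2967, 2721 and 2609 TPM in ethanol females, and 2209, 2009, 2299 and 2199 TPM in control males against 2404, 2452, 2487 and 2401 TPM in ethanol males. The labels did not overlap, and Plg rose 1.23-fold (0.30 ± 0.07, adjusted p = 0.0016). Serpinf2 (alpha-2-antiplasmin) rose 1.28-fold (0.36 ± 0.08, adjusted p = 0.0012), with means of 581 and 758 TPM in control and ethanol females and 661 and 837 TPM in males. Under median-of-ratios scaling Serpinf2 did not pass (0.27, adjusted p = 0.065).
Both had smaller differences at early resolution, 0.12 ± 0.07 and 0.08 ± 0.08, and rose again at late resolution, by 0.30 (adjusted p = 0.0081) and 0.29 (adjusted p = 0.026). Under median-of-ratios scaling neither was called at late resolution (0.21 and 0.20), and the call for Serpinf2 was also lost without late ethanol female 3, late control male 2, or late ethanol male 2 or 3. Hgfac, a protease that activates hepatocyte growth factor, rose by 0.59 ± 0.17 at early (adjusted p = 0.014) and 0.63 ± 0.18 at late resolution (adjusted p = 0.015). Its difference at peak was 0.41 ± 0.16 (adjusted p = 0.059), and it was called there after median-of-ratios scaling. Its early call was lost without early ethanol female 2 or early ethanol female 3, and its late call without late control female 4. Plau (urokinase) averaged 0.909 TPM and Cpb2, which makes fibrin resistant to plasmin, 514 TPM, and neither was called. The untested Plat was 0.249, 0.152, 0.282 and 0.244 TPM in peak control females and 0.942, 0.475, 0.397 and 0.322 TPM in ethanol females. In males it was 0.201, 0.412, 0.175 and 0.117 TPM against 0.753, 0.566, 0.551 and 0.866 TPM. Every peak control thus lay below all ethanol-labelled libraries of the same sex label. At early and late resolution the diet labels overlapped within each sex label. Late ethanol females, for example, had 0.0485 to 0.576 TPM and late control females 0.124 to 0.723 TPM. With the depth unknown, the precision of such low levels is unknown.

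The vitamin K cycle carboxylates factors II, VII, IX and X and proteins C, S and Z. Vkorc1, the epoxide reductase that warfarin blocks, rose at late resolution by 0.44 ± 0.14 (adjusted p = 0.032), from means of 215 and 184 TPM in control females and males to 296 and 238 TPM. The call was lost without any of 6 single libraries, and 402 bases of its transcript are shared with the readthrough model Gm21974. Ggcx, the carboxylase, had differences of -0.09, 0.04 and 0.06 and was not called.

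In all, 14 of 32 tested members rose and 2 fell by diet label at peak, beside 17.3% of 11244 genes that rose and 9.81% that fell. At early resolution 9 rose and none fell, beside 14.3% and 2.46%. At late resolution 11 rose and none fell on the TPM as deposited, beside 8.82% and 3.98%. The median log2 difference of the members was 0.28, 0.22 and 0.23 at the 3 stages, and that of all genes tested 0.05, 0.13 and 0.05. The 3 comparisons use different libraries. Under median-of-ratios scaling, which removes the all-gene shift of 0.13 at early resolution, 4 members rose there (F7, Serpinc1, Kng2 and Hgfac), F9 fell by 0.26, and the shares of all genes were 7.61% and 9.17%. At peak the same scaling gave 7 that rose and 3 that fell, beside 15.0% and 20.7%. At late resolution it gave 7 that rose and 2 that fell (F9 by 0.24 and Pros1 by 0.48), beside 8.50% and 12.5%. Its share of higher among all called genes was 42.1%, 45.4% and 40.4% at the 3 stages, against 63.8%, 85.3% and 68.9% on the TPM as deposited. Without late control female 1, the library with Xist, 13 members were called at late resolution, among them all 11 called with it. F12 (0.27) and Pros1 (-0.46) were added, and the share of all genes called in that fit is not given here.

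**Figure D3:**
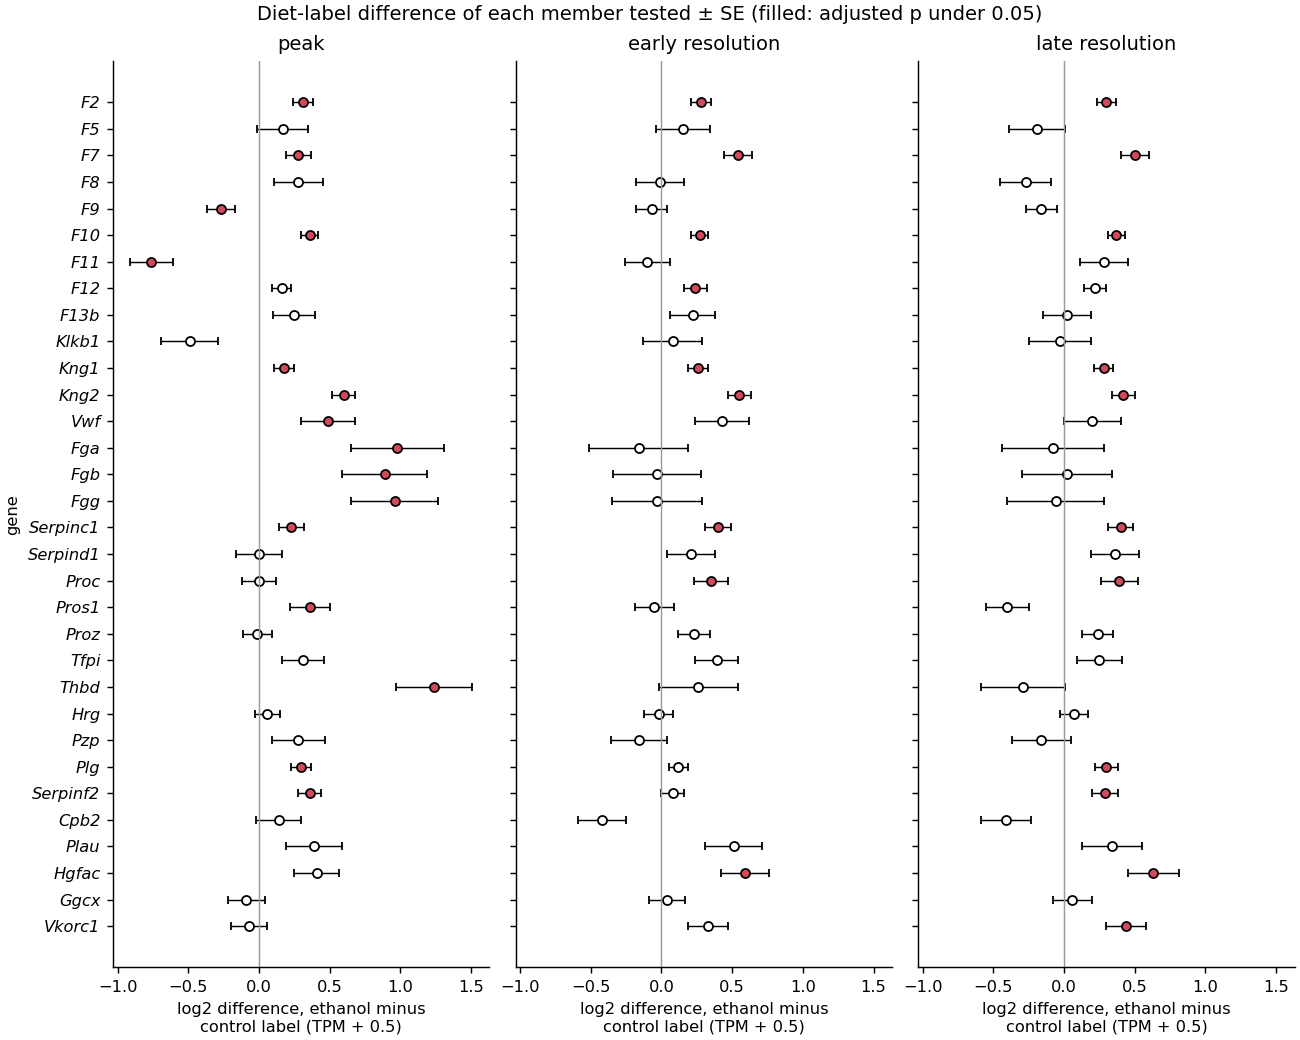
For each of 32 tested members, the x axis gives the log2 difference in TPM + 0.5, ethanol minus control label, with its SE at the 3 stages; filled points have an adjusted p under 0.05. At peak 14 members are filled on the right and 2 on the left, and at late resolution 11 on the right and none on the left.

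Whether the diet-label difference changed between stages was tested directly. From peak to late resolution it changed for 3 members, beside 3.98% of all genes. The difference of F11 moved up by 1.04 ± 0.23 (adjusted p = 0.013), from -0.76 to 0.28. At late resolution F11 was 109.8, 74.1 and 82.3 TPM in ethanol females and 117, 78.0 and 96.3 TPM in ethanol males, and between 65.5 and 99.0 TPM in all controls. Thbd moved down by 1.53 (SE 0.40, adjusted p = 0.028) and Pros1 by 0.76 (SE 0.20, adjusted p = 0.028), calls that were lost without any of 8 and 9 single libraries. Without late control female 1 the 3 changes were 1.04, -1.56 and -0.82 and all 3 were called. From peak to early resolution no member was called, nor was any gene (0%), by limma at an adjusted p under 0.05. An unadjusted p under 0.05 was found for 10 of 32 members, beside 1879 of 11244 genes.

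**Figure D4:**
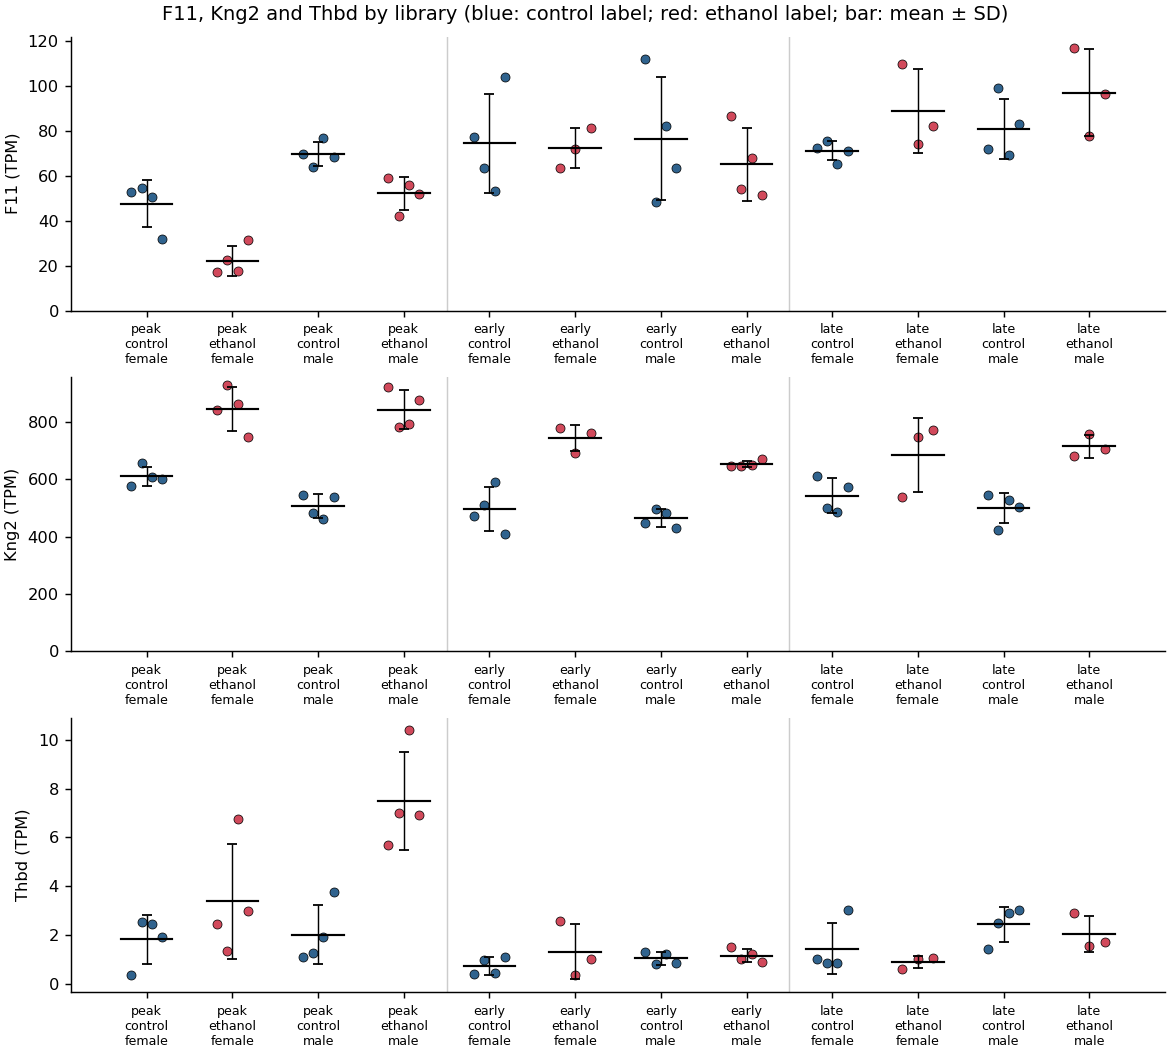
Each point is 1 library and the y axes give TPM for F11, Kng2 and Thbd in the 12 groups, with blue for control and red for ethanol labels, a horizontal bar for the mean and an error bar for the SD. Peak ethanol females are low in F11 (17.2 to 31.3 TPM), the mean of Kng2 is higher in ethanol than in control groups at each stage, and Thbd is highest in peak ethanol males (5.70 to 10.4 TPM).

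By sex label, members were called at peak alone on the deposited TPM, and the scaling moved all of them. On the TPM as deposited, 6 members were higher in male-labelled libraries and 13 lower, beside 4.26% and 46.7% of all genes, since the all-gene median lay at -0.29. Median-of-ratios scaling, which removes this shift, called 14 members as higher and 2 as lower, beside 16.3% and 15.4%. The 14 after scaling were 5 procoagulant factors, the 3 fibrinogen chains, 3 anticoagulants or inhibitors and 3 genes of the fibrinolysis group. Called as higher both ways were Fga, Fgb, Fgg, F11, Cpb2 and Thbd. Fga was higher by 1.04 ± 0.33 as deposited and by 1.40 after scaling (adjusted p = 0.01 and 0.0066), and F11 by 0.92 ± 0.15 and 1.26 (adjusted p = 3.6e-05 and 3.3e-07). The call for Thbd as deposited (0.68 ± 0.27, adjusted p = 0.037) was lost without any of 6 single libraries.
Cpb2 was 356, 488, 431 and 312 TPM in peak control females and 529.6, 422, 490.4 and 668 TPM in control males. In ethanol females it was 320.4, 368, 483 and 366 TPM and in ethanol males 683, 639, 692 and 595 TPM. Only the ethanol-labelled groups did not overlap, and Cpb2 was higher by 0.59 ± 0.16 (adjusted p = 0.0038).
Called as lower both ways were Tfpi, by -0.78 ± 0.15 as deposited and -0.50 after scaling, and Plau, by -0.65 ± 0.20 and -0.45. F9, F12 and Serpinc1, called as lower at -0.34, -0.26 and -0.29, were at 0.01, 0.10 and 0.06 after scaling. The other 8 members called as lower on the deposited TPM, F8, F13b, Klkb1, Vwf, Serpind1, Hrg, Ggcx and Vkorc1, kept a negative difference that was not called.

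**Figure D5:**
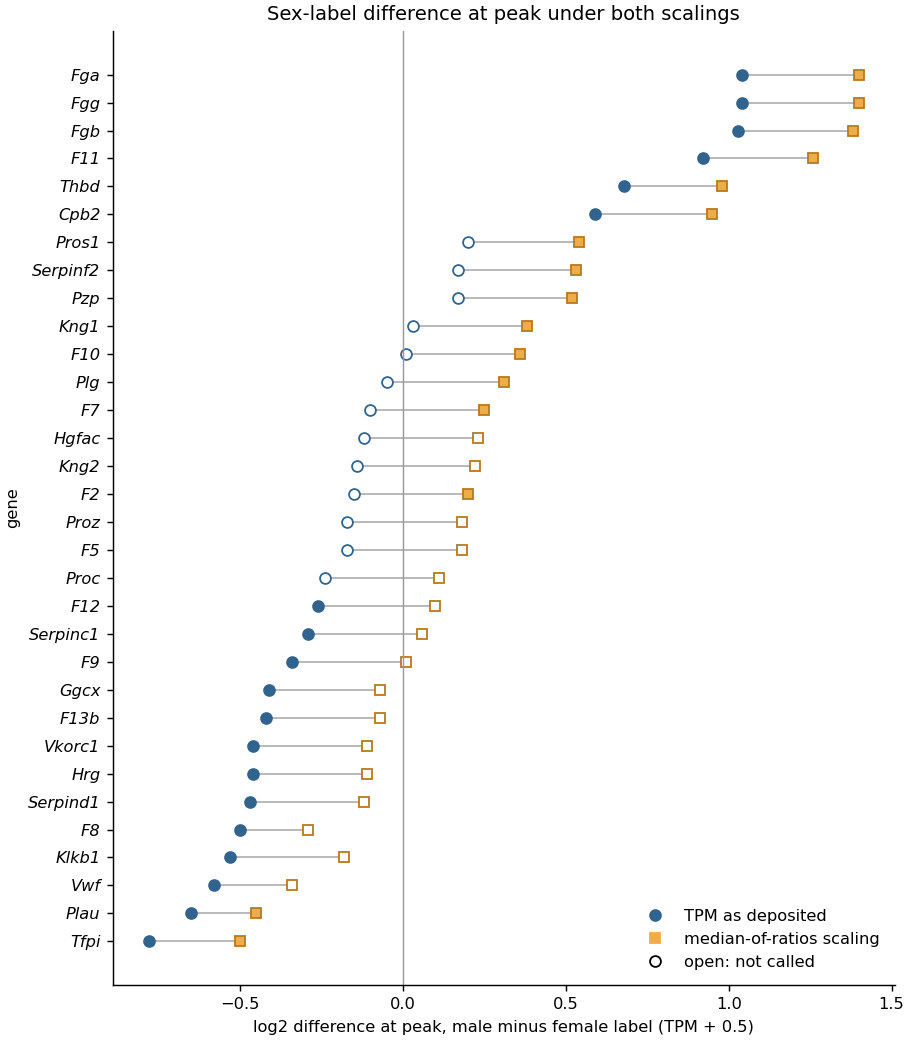
For each of 32 tested members, the x axis gives the log2 difference in TPM + 0.5 at peak, male minus female label, from the deposited TPM (circles) and after median-of-ratios scaling (squares); open symbols were not called. Scaling moves every member to the right, for example Fga from 1.04 to 1.40, and leaves Tfpi and Plau as the 2 called on the left.

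Acute phase and neutrophil genes moved with the sex label at peak. Of 16 acute phase genes 11 were higher and 1 lower in male-labelled libraries, beside 4.26% and 46.7% of all genes, and after scaling 12 were higher and none lower. Among those higher were Apcs (serum amyloid P) by 2.26, Lcn2 (lipocalin 2) by 4.28 and Hpx (haemopexin) by 1.32. Of 4 tested neutrophil markers 4 were higher, and the 5 listed summed to between 28.9 and 149 TPM in male-labelled and between 3.94 and 65.8 TPM in female-labelled libraries. Of 10 endothelial markers 9 were lower in male-labelled libraries, and 4 after scaling, beside 46.7% and 15.4% of all genes. The part of these 3 lists in the fibrinogen, Thbd, Cpb2, Tfpi and Vwf differences was not tested. After peak, no member was called by sex label at early resolution, beside 0.596% of all genes. By limma 4 of 32 members had an unadjusted p under 0.05, beside 1443 of 11244 genes. No member was called at late resolution, beside 3.25% of all genes. There 5 of 32 members had an unadjusted p under 0.05, beside 2747 of 11244 genes. Median-of-ratios scaling called 0 and 1 at these stages, the latter F5 (0.49, adjusted p = 0.042). Without late control female 4, 5 members were called at late resolution, but the share of all genes called in that fit is not given here.

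No member had a diet-label difference that differed between the sex labels by limma. The interaction was called for 0.160% of all genes at peak, 0.00889% at early and 0.0445% at late resolution. Of 32 members 1, 5 and 1 had an unadjusted p under 0.05, beside 1491, 516 and 904 of 11244 genes. Median-of-ratios scaling called 0 members at each stage. Hrg had the smallest p, with an interaction of 0.70 ± 0.20 at early resolution (adjusted p = 0.75). There its means were 1884 TPM in control and 1458 TPM in ethanol females, and 1561 and 1965 TPM in males.

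Of 31 other genes of coagulation, platelet adhesion and fibrinolysis, 23 were tested, and 8 rose and 2 fell by diet label at peak, beside 17.3% and 9.81% of all genes. After median-of-ratios scaling 8 rose and 3 fell. Gas6, a vitamin K-dependent ligand related to protein S, was 6.02 to 14.2 TPM in the 8 peak controls and 20.8 to 69.0 TPM in the 8 ethanol-labelled libraries. It rose by 2.14 ± 0.25 at peak (adjusted p = 4.4e-08), by 1.45 at early and by 1.05 at late resolution.
Serpine2 (protease nexin 1), which inhibits thrombin and urokinase, fell by 2.35, 2.43 and 2.31 at the 3 stages (adjusted p = 1.3e-09, 2.1e-09 and 2.1e-08). Plaur, the urokinase receptor, rose by 0.72 at peak and Adamts13, which cleaves von Willebrand factor, by 0.74, 0.72 and 0.53 at the 3 stages. The late Adamts13 call was lost without any of 9 single libraries. F2r, the thrombin receptor PAR1, fell by 0.66 at early and 0.81 at late resolution. At early resolution 3 of the 23 rose and 2 fell, beside 14.3% and 2.46%, but after scaling 2 rose and 5 fell, beside 7.61% and 9.17%. At late resolution 4 rose and 3 fell, beside 8.82% and 3.98%, and after scaling 4 rose and 4 fell.

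A list of 16 regulators of clotting genes held transcription factors and the growth hormone receptor. Of these 15 were tested, and 4 rose and 2 fell by diet label at peak, beside 17.3% and 9.81% of all genes. After median-of-ratios scaling 3 rose and 5 fell, beside 15.0% and 20.7%. Esr1, the oestrogen receptor, rose by 1.34 ± 0.16 without overlap (adjusted p = 5.1e-08). Stat3, which relays IL-6 to the fibrinogen genes, rose by 0.87 ± 0.17 (adjusted p = 0.00017), and Hnf4a, a hepatocyte regulator of many clotting factors, by 0.59 ± 0.13 (adjusted p = 0.00059), also without overlap. Esr1, Stat3 and Hnf4a were above the control mean of their sex label in 8 of 8 ethanol-labelled libraries. Their part in the members' levels was not tested.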

How the data were processed

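The authors deposited 1 table of 24972 genes by 45 libraries, with expression scaled as TPM. The table is named for normalized counts, but each library adds up to 999999 to 1000001 and the smallest steps depend on the gene, so depth is unknown. Per the labels' protocols, RNA came from a spin-column kit and libraries from a stranded mRNA kit. Per the submitters' processing notes the build was mm10. Aligner, counter and annotation: not given in the sources used here. A library had 15093 to 16402 genes above 0. Names that had turned into dates (26, 0.044% of TPM) were left out.

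The 11244 genes that averaged 0.5 TPM or more were fitted on log2(TPM + 0.5) with limma 3.58.1 (R 4.3.3). The model had 12 group means and a variance trend, with 33 residual and 3.8 prior df. Benjamini-Hochberg adjustment ran over all 11244 genes, and a gene is called under 0.05. Diet-label and sex-label differences weight the other label equally. The fit was tested on simulated data. Coordinates and transcripts came from GENCODE M21, promoters from RefSeq (GRCm38.p6; 27 of 34 members matched), and near copies from blastn 2.17.0. Other software was matplotlib 3.10.9, scipy 1.17.1, pandas 2.3.3 and numpy 2.4.6 under Python 3.11.15.

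The members and all lists were chosen with earlier results of these data known. All members could be named, and of the other coagulation genes those called by diet label with the smallest p, up to 6 each way. Of each remaining list, up to 3 members called at peak could be named. Some results of the wider gene lists are not reported here. Alternatives were pseudocounts of 0.1 and 2, no filter, a minimum mean of 5 TPM, quantile normalization, median-of-ratios scaling, no variance trend, array weights, the stages compared alone, a replicate block, a threshold of 0.01, and leaving out each library.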

Additional observations from a re-analysis of the deposited data

Results flagged for a closer look

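In groups of 4 libraries, 16 of 288 pairs of member and group held a library far from the other 3, about the 1 in 20 that chance gives; groups of 3 were not checked. Early ethanol male 2 stood apart for 7 members. It was lowest of its group for F2 (1953 TPM against 2275 to 2307), F5 (60.0 TPM against 119 to 128), F13b (51.9 TPM against 82.5 to 88.7), Serpinf2 (761 TPM against 863 to 883), Pzp (1246 TPM against 2477 to 2699.6) and Ggcx (20.9 TPM against 30.2 to 32.1). It was highest for Proc (692 TPM against 517 to 536). Peak ethanol female 3 was highest for the 3 fibrinogen chains, at 16192 TPM of Fga, 23295 TPM of Fgb and 20381 TPM of Fgg.

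The other single libraries were spread over 6 groups and 6 members. F5 was 108 TPM in early control female 2, Klkb1 59.6 TPM in peak control female 1 and Kng1 4283 TPM in peak ethanol female 2. Tfpi was 3.62 TPM in early ethanol male 1, Thbd 3.01 TPM in late control female 4 and Plau 1.09 TPM in early control male 3.

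The diet-label difference of 3 members changed from peak to late resolution by limma, F11 by 1.04 (adjusted p = 0.013), Thbd by -1.53 (adjusted p = 0.028) and Pros1 by -0.76 (adjusted p = 0.028).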

How the results depend on the processing

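Of 58 called values of members, 18 kept call and direction in every alternative run at the 0.05 threshold, among them F2, F10, F11, Kng2, Plg and Thbd by diet label at peak. Leaving out 1 library at a time ended 180 of 2610 such calls and reversed none. Median-of-ratios scaling ended 25 of 58 and reversed 3, all of the sex label at peak: F9 to 0.01, F12 to 0.10 and Serpinc1 to 0.06. Counts of members called moved by over 1.5 times as follows. At a threshold of 0.01, the diet-label counts were 7 at peak (16 at 0.05) and 7 at late resolution (11 at 0.05), the sex-label count at peak 12 (19 at 0.05) and the change from peak to late resolution 0 (3 at 0.05). Median-of-ratios scaling gave 10 and 5 by diet label at peak and early resolution (16 and 9 as deposited) and 1 by sex label at late resolution. Quantile normalization gave 11 and 2 by sex label at peak and late resolution, and no filter gave 1 at late resolution. The stages compared alone gave 4 by diet label at early and 4 at late resolution. That fit held fewer libraries and estimated the filter and the spread anew. Array weights, whose estimate stopped before it converged, gave 14 by diet label at early resolution, 6 and 11 by sex label at early and late resolution, 6 for the interaction at peak, and 10 and 7 for the changes to early and late resolution. The causes of these moves were not tested.

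Without 1 library, the diet-label counts ran from 10 (without peak control male 2) to 18 at peak, from 6 to 14 at early resolution (14 without early ethanol female 1) and from 8 to 13 at late resolution. The sex-label counts ran from 16 to 22, 0 to 1 and 0 to 5, the interactions stayed at 0, and the changes ran from 0 to 4 (4 without early ethanol female 1) and from 1 to 3. The change to late resolution fell to 1 without peak ethanol female 3, peak control male 1 or 2, late control female 4, late control male 3, late ethanol female 1, or late ethanol male 2 or 3. The replicate number as a block, which used 42 libraries with 15 residual degrees of freedom, gave 3 by diet label at late resolution and 0 for the change to late resolution. Replicate numbers were not taken as pairs: over 21 pairs the correlation of deviations ran from -0.371 to 0.25 with a median of -0.053. In 7 pairs the match to the same number was the closest. At peak this held for all 4 female-labelled pairs, whose r was 0.109 to 0.222, and at early resolution for 3 of 4 male-labelled pairs, whose r was 0.151 to 0.25. The sex-label comparisons had no such fit, since numbers were blocked within a sex label. Depth is unknown, which leaves the precision of genes near 1 TPM, such as F8, Vwf, Plau and Thbd, unknown as well.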
